A study of Mus musculus with 4 samples.

Results

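The enzymes that make cholesterol and the enzymes that make and modify fatty acids, with the proteins that control them, were followed in chemically transformed mouse fibroblasts with and without diethyl maleate (DEM). The set holds 35 genes of 24658 genes and transcripts tested. It comprises 19 enzymes of sterol synthesis, 10 enzymes of fatty acid synthesis, desaturation and elongation, and 6 regulators, among which the sterol carrier Stard4 is counted. Members were taken by gene name from the array annotation, old symbols included (Sc4mol is printed here under its current symbol Msmo1), with 1 probe, the brightest, per gene. At an adjusted p under 0.05, 11 of 19 sterol enzymes and 4 of 10 fatty acid enzymes were lower with DEM. Another 2 sterol enzymes, Hsd17b7 and Ebp, were higher. Over all genes tested, 11.8% were lower and 15.5% higher. Most calls of members kept their direction but were lost with scaling to spike-in RNA or with 1 untreated array left out.

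RNA was measured on 4 one-colour Agilent arrays, 1 sample per array. All 4 samples were C3H10T1/2 cells, a line of mouse embryo fibroblasts used to score chemical transformation. The cells of both groups had been given the carcinogen 3MC (2.5 µg/ml) for 2 days, plain medium for 4 days, the tumour promoter TPA (100 ng/ml) 2 times a week for 2 weeks, and plain medium again for 4 weeks. The untreated group (2 arrays) was left without further treatment, and the DEM group (2 arrays) was exposed to 0.25 mM DEM, an electrophile that reacts with glutathione. The sources used here do not state how long that exposure lasted, the labels do not say whether transformed foci were isolated from the surrounding cells, and no untransformed cells were among the samples. The labels also do not say whether each sample was a culture of its own, so the p-values rest on a spread among samples that may be technical only.

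Cholesterol is built from acetyl-CoA through mevalonate, isoprenoids, squalene and lanosterol, and lanosterol is then trimmed, reduced and rearranged in the endoplasmic reticulum. Fatty acids are built from acetyl-CoA by carboxylation and chain extension, and are then elongated and desaturated. Transcription of both sets of enzymes is controlled by the sterol regulatory element-binding proteins (SREBPs), which are held in the endoplasmic reticulum with the escort protein Scap by the Insig proteins when sterols are plentiful, and are carried to the Golgi and cut when sterols run low. Fibroblasts in culture make cholesterol and membrane lipids and can also take both up from serum.

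A level is the log2 processed signal of a probe less the 75th percentile of all probes on its array, so 0 is that percentile. A change is the mean level with DEM minus the mean level of the untreated arrays, with its standard error from limma, and a gene passed when its Benjamini-Hochberg adjusted p over all genes tested was under 0.05. Between 47.8% and 52.7% of all probe spots on an array were well above background, and the brightest probes of all 35 members were so on all 4 arrays, so no member was lost to the filter on dim probes. That percentile was a signal of 701 and 747 in the untreated samples and of 449.9 and 412 in the DEM samples. All arrays were on 1 slide and in 1 scan, but the untreated arrays lay in one slide row and the DEM arrays in the other, so slide row and treatment cannot be told apart. All 12 fibroblast markers examined were measured, and 8 of them were lower with DEM, against 11.8% of all genes tested. Of these 8, Lum and Fap were not well above background on either DEM array. The summed level of the 12, on the log2 scale, was 10.60 and 10.66 in the untreated arrays and 9.72 and 10.29 in the DEM arrays. Defining markers of adipocytes (Adipoq, Plin1, Cidec, Lep), macrophages (Ptprc, Adgre1, Csf1r), endothelium (Pecam1, Cdh5, Kdr) and epithelium (Epcam, Cdh1, Krt18) were not well above background on 2 or more arrays. The other markers on those lists were measured, 4 of 8 for adipocytes, 4 of 7 for macrophages, 1 of 4 for endothelium and 1 of 4 for epithelium. Of the adipocyte markers, Fabp4 stood at 2.73 and 2.40 and Pparg at 2.24 and 2.09 in the untreated arrays and neither passed, whereas Lpl fell (-1.13 ± 0.17; limma adjusted p = 0.00740). The macrophage marker Lyz2 fell as well (-1.85 ± 0.35; limma adjusted p = 0.0141), Cd14 stood at 1.84 and 2.13 untreated and did not pass, and the endothelial Tek was called lower (limma adjusted p = 0.0114) with both DEM arrays not well above background. Summed levels ran from 3.98 to 4.15 untreated and from 3.95 to 3.96 with DEM for the adipocyte markers, and from 2.20 to 2.48 and from 2.28 to 2.77 for the macrophage markers. What part these markers have in the results below was not tested, and in bulk RNA fewer cells of a type and less RNA per cell cannot be told apart.

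The sterol enzymes held most of the calls. Of 19, 11 were lower, 2 were higher and 6 did not pass; over all genes tested, 11.8% were lower, 15.5% were higher and 27.2% passed in either direction. The median change of the 19 enzymes was -1.00, against 0.16 for all genes tested. The DEM arrays lay wholly on one side of the untreated arrays for all 19 enzymes, 16 of them below; over all genes tested, 68.5% did not overlap between the groups, 26.0% below and 42.4% above. Relative to each gene's untreated mean, the median sterol enzyme stood at -0.12 and 0.12 in the untreated arrays and at -0.98 and -0.69 in the DEM arrays. All 18 members that passed kept their direction in each of the 14 alternative settings run, but many calls were lost with another scaling or with 1 untreated array left out. The direction could not turn with 1 array left out, since none of the 18 overlapped between the groups. Nor could it turn without the intensity trend, with the replicate number as a block or with other filters on dim probes, which left each change as it was. Scaling each array to its spike-in RNA in place of its 75th percentile left 1 sterol enzyme lower (Dhcr7), 0 higher and 0 fatty acid enzymes lower in limma (4, 0 and 3 at an unadjusted p under 0.05). The median changes in that scaling were -1.11 for the sterol enzymes and -0.76 for the fatty acid enzymes, and, relative to the spike-in RNA, the array percentile stood in log2 at -2.81 and -3.53 on untreated arrays 1 and 2 and -2.83 and -3.72 on DEM arrays 1 and 2. Of the genes that passed in that scaling, 31.6% were higher against 56.8% with the percentile. Without untreated array 1, 2 sterol enzymes remained lower (Fdps and Dhcr7), and without untreated array 2 only Fdps did.

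**Figure D1:**
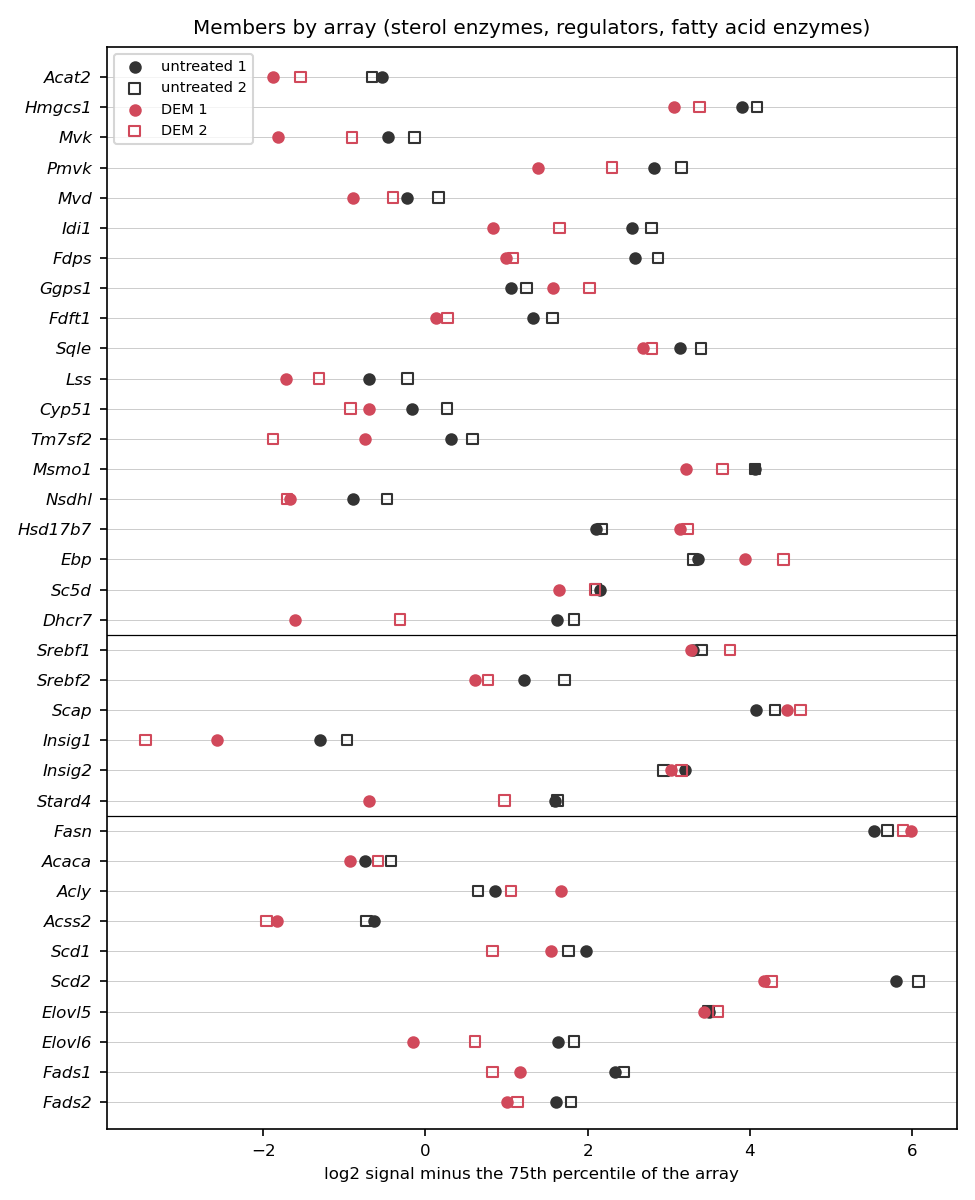
Level of each member on each array, as log2 signal relative to the array's 75th percentile (horizontal axis), with untreated arrays in black and DEM arrays in red, replicate 1 as filled circles and replicate 2 as open squares. The DEM points lie to the left of both untreated points for 16 of the 19 sterol enzymes in the upper block, and to the right for Ggps1, Hsd17b7 and Ebp; levels of different genes come from different probes and are not to be compared.

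Promoter sequence is shown for 6 members, namely Hmgcs1, Insig1 and Dhcr7, which were lower, Hsd17b7 and Ebp, which were higher, and Srebf2, which encodes the SREBP of the sterol genes, to show which short elements members of either direction carry. They are stretches of 120 bases from the RefSeq promoter table of GRCm38.p6, written on the strand of the gene, with capitals marking every match to the motifs searched.
Hmgcs1: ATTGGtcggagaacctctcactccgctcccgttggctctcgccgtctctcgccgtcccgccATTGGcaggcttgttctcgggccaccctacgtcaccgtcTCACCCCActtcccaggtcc
Insig1: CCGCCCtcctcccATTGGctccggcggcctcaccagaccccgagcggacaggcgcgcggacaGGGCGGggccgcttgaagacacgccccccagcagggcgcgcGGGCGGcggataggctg
Dhcr7: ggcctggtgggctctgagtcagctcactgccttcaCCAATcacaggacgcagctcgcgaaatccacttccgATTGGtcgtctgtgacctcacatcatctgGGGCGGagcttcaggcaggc
Srebf2: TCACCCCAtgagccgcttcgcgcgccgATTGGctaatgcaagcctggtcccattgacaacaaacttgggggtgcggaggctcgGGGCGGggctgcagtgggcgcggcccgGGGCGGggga
Hsd17b7: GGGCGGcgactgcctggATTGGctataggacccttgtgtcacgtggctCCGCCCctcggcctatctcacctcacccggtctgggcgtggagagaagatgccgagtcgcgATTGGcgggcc
Ebp: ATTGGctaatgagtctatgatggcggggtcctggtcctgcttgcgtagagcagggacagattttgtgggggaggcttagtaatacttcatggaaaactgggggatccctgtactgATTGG
The Hmgcs1 stretch lies at chr13:119690114-119690233 on the plus strand, from 237 to 118 bases before the transcription start. The others are chr5:28071183-28071302 on the plus strand for Insig1, chr7:143830094-143830213 on the plus strand for Dhcr7, chr15:82147107-82147226 on the plus strand for Srebf2, chr1:169969268-169969387 on the minus strand for Hsd17b7 and chrX:8193563-8193682 on the minus strand for Ebp. Each is upstream of its transcription start.

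The motifs were searched on both strands of the window from 250 bases before to 50 bases after each start. They were TCACNCCA, the core of the sterol regulatory element bound by SREBPs, CCAAT, the box bound by NF-Y, GGGCGG, the box bound by Sp1, and TGACNNNGC, the core of the antioxidant response element bound by Nrf2. The motifs were chosen after the values of the members had been seen, and TCACNCCA and CCAAT can share letters. Promoters were found for 28 of the 35 members. CCAAT was present for 23 of these 28 members, among them 15 of the 16 sterol enzymes and 4 of the 7 fatty acid enzymes with a promoter; counted by promoter, it was in 66.7% of 36 member promoters and in 37.4% of the 32851 promoters in the table. GGGCGG was in 72.2% of member promoters against 35.7% of all. TCACNCCA was in the promoters of Hmgcs1, Msmo1 and Srebf2, or 8.33% of member promoters against 4.36% of all. TGACNNNGC was found for Acss2, Dhcr7, Hsd17b7, Mvk and Pmvk, or 13.9% of member promoters against 12.4% of all. Of these, Hsd17b7 rose, Acss2, Dhcr7 and Pmvk fell, and Mvk did not pass. The promoters of Hsd17b7 and Ebp, both higher with DEM, hold CCAAT as do those of Hmgcs1, Insig1 and Dhcr7, which were lower. A match is a description of letters and not evidence of binding.

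The first stages, from acetyl-CoA to the farnesyl branch point, had 7 enzymes, none of them higher. Of the 7, 5 were lower and 0 higher (0 higher at an unadjusted p under 0.05 in limma), and the median change was -1.11. The shares over all genes tested were 11.8% lower and 15.5% higher, with a median change of 0.16. Acat2, the cytosolic thiolase that joins acetyl-CoA units, had levels of -0.54 and -0.66 in the untreated arrays and -1.88 and -1.54 in the DEM arrays, a change of -1.11 ± 0.23 (SE; limma adjusted p = 0.0183). Hmgcs1, which makes HMG-CoA and carries the sterol element match shown above, had levels of 3.91 and 4.08 untreated and 3.06 and 3.38 with DEM. Its change was -0.78 ± 0.19, 1.71-fold lower (limma adjusted p = 0.0298), but it no longer passed without the intensity trend (limma adjusted p = 0.0596) or, at -0.62, without DEM array 1. Both DEM arrays were below both untreated arrays for both enzymes, as they were for 26.0% of all genes tested. The change of a second Hmgcs1 probe was -1.03, but its DEM levels of -4.29 and -5.00 were not well above background. The size of that change is therefore not settled. Of the 5 that were lower, Fdps alone remained so without untreated array 1 (limma adjusted p from 0.0283 to 0.144 over the 5) and without untreated array 2 (0.0419 to 0.229).

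The mevalonate kinases and the decarboxylase were lower on both DEM arrays, with a wide gap between those arrays for the kinases. Pmvk, the kinase that acts after Mvk, had levels of 2.81 and 3.16 untreated and 1.38 and 2.30 with DEM, a change of -1.14 ± 0.33 (limma adjusted p = 0.0477). Without DEM array 1 its change was -0.69 (limma adjusted p = 0.0564), so the size of that fall and its call rested on this array, and the call was also lost without the intensity trend (limma adjusted p = 0.0795). Mvk, the kinase that phosphorylates mevalonate, had levels of -0.46 and -0.13 untreated and -1.82 and -0.91 with DEM, a change of -1.06 ± 0.34 that did not pass (limma adjusted p = 0.0656). Mvd, the decarboxylase that yields isopentenyl diphosphate, had levels of -0.22 and 0.16 untreated and -0.89 and -0.40 with DEM and did not pass either (change -0.61 ± 0.26; limma adjusted p = 0.134). For each of these the lower value was on DEM array 1, and without DEM array 2 both Mvk (-1.52; limma adjusted p = 0.00427) and Mvd (-0.86; limma adjusted p = 0.0365) passed. Without DEM array 1 the changes were smaller, at -0.61 for Mvk (limma adjusted p = 0.0908) and -0.37 for Mvd (limma adjusted p = 0.284).

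Idi1 and Fdps, which carry the isoprenoid units to farnesyl diphosphate, both fell. Idi1, the isomerase, had levels of 2.55 and 2.79 untreated and 0.83 and 1.65 with DEM, a change of -1.43 ± 0.30, or 2.69-fold (limma adjusted p = 0.0196). Fdps, the synthase of farnesyl diphosphate, had levels of 2.58 and 2.86 untreated and 1.00 and 1.08 with DEM. Its change was -1.68 ± 0.19, or 3.21-fold lower (limma adjusted p = 0.00341), and it passed with any single array left out. Ggps1, which diverts farnesyl diphosphate to geranylgeranyl diphosphate and away from sterols, had levels of 1.05 and 1.24 untreated and 1.57 and 2.02 with DEM. That change of 0.65 ± 0.22 did not pass (limma adjusted p = 0.0791), but it passed without DEM array 1 at 0.87 and was 0.42 without DEM array 2 (limma adjusted p = 0.164). The change of Fdps was 2.33 below that of Ggps1, and the differences between these probes did not overlap between groups (exact two-sided permutation p = 0.333, the smallest that 2 arrays against 2 allow).

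**Figure D2:**
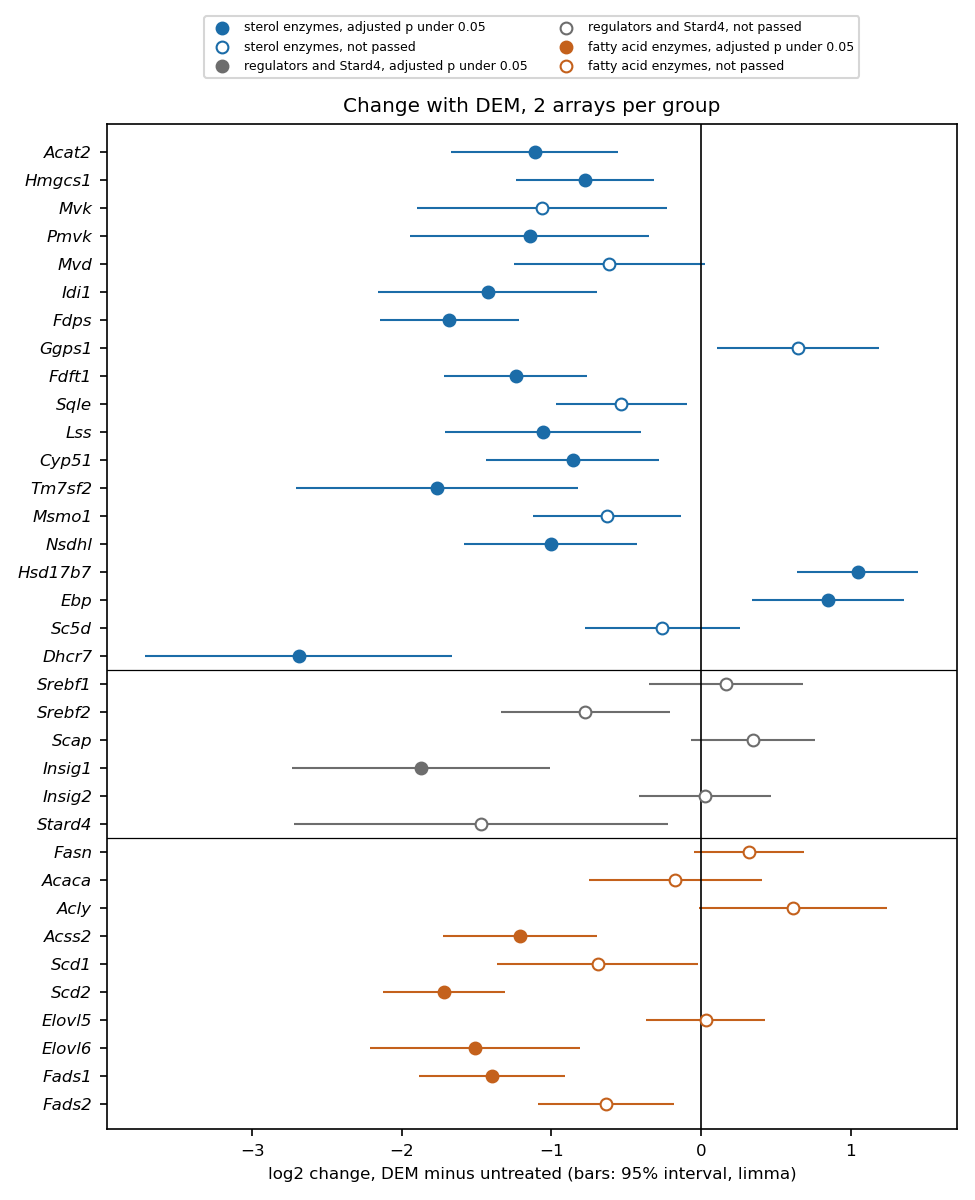
Change with DEM of each member on the log2 scale (horizontal axis), as the mean of 2 DEM arrays minus the mean of 2 untreated arrays, with bars for the 95% interval from limma; filled points passed and open points did not. Dhcr7 lies farthest to the left at -2.69, and Hsd17b7 and Ebp are the only filled points to the right of 0.

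In the squalene and lanosterol steps, 2 of 3 enzymes were lower, against 11.8% of all genes tested. Fdft1, which joins farnesyl units to squalene, had levels of 1.32 and 1.57 untreated and 0.14 and 0.27 with DEM, a change of -1.24 ± 0.20 (2.36-fold; limma adjusted p = 0.00845). Lss, which cyclises squalene epoxide to lanosterol, had levels of -0.70 and -0.22 untreated and -1.72 and -1.31 with DEM, a change of -1.06 ± 0.27 (limma adjusted p = 0.0344). All 3 enzymes of these steps had both DEM arrays below both untreated arrays, as did 26.0% of all genes tested. Neither call held without untreated array 1 (limma adjusted p from 0.0563 to 0.0965) or without untreated array 2 (0.0881 to 0.243). Sqle, the epoxidase that is a control point of the pathway, had levels of 3.14 and 3.40 untreated and 2.68 and 2.79 with DEM. Its change of -0.53 ± 0.18 did not pass (limma adjusted p = 0.0746). It passed in limma after normexp correction (adjusted p = 0.0410), after quantile normalization (0.0365) and when dim probes were kept (0.0419). With spike-in scaling (0.999) or without the intensity trend (0.118) it did not.

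From lanosterol to cholesterol the enzymes divided, with 4 of 8 lower and 2 of 8 higher, against 11.8% and 15.5% of all genes tested. Of these 6 calls, 1 (Dhcr7) held without untreated array 1 (limma adjusted p from 0.0497 to 0.135) and 0 without untreated array 2 (0.0627 to 0.294). Dhcr7, the reductase of the last step to cholesterol, had the lowest change of the set. Its levels were 1.63 and 1.83 untreated and -1.61 and -0.31 with DEM, a change of -2.69 ± 0.42, or 6.45-fold lower (limma adjusted p = 0.00820). The DEM arrays differed from each other by more than the untreated arrays did, and both were far below them. The size of the change depended on the DEM array, at -2.04 without DEM array 1 and -3.34 without DEM array 2. The call was lost without untreated array 2, at -2.59. A second Dhcr7 probe gave -3.19, but its DEM levels of -5.99 and -4.43 were not well above background, so that size is not settled.

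Tm7sf2, a sterol reductase that acts after the lanosterol demethylase, had levels of 0.32 and 0.58 untreated and -0.75 and -1.88 with DEM, a change of -1.76 ± 0.39 (3.40-fold; limma adjusted p = 0.0221). Cyp51, that demethylase, had levels of -0.17 and 0.26 untreated and -0.69 and -0.92 with DEM, a change of -0.86 ± 0.24 (limma adjusted p = 0.0433). The other 2 Cyp51 probes gave changes of -1.21 and -1.09, in the same direction as the brightest. Nsdhl, the dehydrogenase of the demethylation complex that removes the methyl groups of lanosterol, had levels of -0.89 and -0.47 untreated and -1.67 and -1.71 with DEM, a change of -1.00 ± 0.24 (limma adjusted p = 0.0274). Without DEM array 2 the call of Cyp51 was lost (-0.74; limma adjusted p = 0.0620), as it was without the intensity trend (limma adjusted p = 0.0596).

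Hsd17b7, the ketoreductase that works on the product of Nsdhl in the same complex, rose. Its levels were 2.10 and 2.17 untreated and 3.14 and 3.23 with DEM, a change of 1.05 ± 0.17, or 2.06-fold higher (limma adjusted p = 0.00873), and a second probe gave 0.89. Both DEM arrays lay well above both untreated arrays. The difference between Nsdhl and Hsd17b7 in their changes was -2.05, with no overlap between the groups (exact two-sided permutation p = 0.333). Ebp, the isomerase that shifts the double bond of the sterol ring, had levels of 3.36 and 3.30 untreated and 3.94 and 4.42 with DEM, a change of 0.85 ± 0.21, or 1.80-fold higher (limma adjusted p = 0.0305). The rise of Ebp did not pass with quantile normalization (0.64; limma adjusted p = 0.0611), without the intensity trend, or without either untreated array.

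Msmo1 and Sc5d did not pass. Msmo1, the methyl sterol oxidase of the demethylation complex, had levels of 4.07 and 4.06 untreated and 3.21 and 3.66 with DEM, a change of -0.63 ± 0.20 (limma adjusted p = 0.0663). It was -0.85 without DEM array 2, where it passed (limma adjusted p = 0.0132), and -0.40 without DEM array 1 (limma adjusted p = 0.138). Sc5d, the desaturase just before Dhcr7, had levels of 2.15 and 2.11 untreated and 1.64 and 2.09 with DEM. Its change was -0.26, with a 95% interval from -0.78 to 0.26 (limma adjusted p = 0.400), and DEM array 2 was next to the untreated arrays. Msmo1 is one of the few members with the sterol element match.

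Of the 6 regulators, 1 was lower and 0 were higher in limma (3 lower and 0 higher at an unadjusted p under 0.05), and their median change was -0.37. That is 16.7% lower, near the 11.8% of all genes tested. Insig1, which retains SREBPs in the endoplasmic reticulum and is itself a target of SREBP, had levels of -1.30 and -0.97 untreated and -2.56 and -3.45 with DEM. Its change was -1.87 ± 0.35, or 3.66-fold lower (limma adjusted p = 0.0142), with both DEM arrays below both untreated arrays. A second probe gave -2.10, but its DEM levels of -5.38 and -4.74 were not well above background. The lowest levels well above background there were -4.28 and -4.16, so the size of that change is not settled. The call was lost without untreated array 1 (limma adjusted p = 0.0737) and without untreated array 2 (limma adjusted p = 0.112). Insig2, a paralog with the same retaining role, had levels of 3.20 and 2.94 untreated and 3.02 and 3.16 with DEM, so the groups overlapped. Its change of 0.03 had a 95% interval from -0.42 to 0.47 (limma adjusted p = 0.929), and the changes of the Insig genes differed by -1.90 (exact two-sided permutation p = 0.333).

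Neither SREBP gene passed. Srebf2, which encodes the SREBP that acts mainly on sterol genes, had levels of 1.22 and 1.71 untreated and 0.61 and 0.77 with DEM, a change of -0.77 ± 0.23 that did not pass (limma adjusted p = 0.0542). It passed in limma when dim probes were kept (adjusted p = 0.0430), after normexp background correction (0.0400) and after median scaling (0.0475). It also passed with the filter for all 4 arrays (0.0476) and the replicate block (0.0292). It did not pass after quantile normalization (0.0509), with spike-in scaling (0.958) or without the intensity trend (0.0807). Without DEM array 2 the Srebf2 change was -0.85. Srebf1, which encodes the SREBPs that act mainly on fatty acid genes, had levels of 3.29 and 3.40 untreated and 3.27 and 3.76 with DEM, and its groups overlapped (change 0.17, 95% interval -0.35 to 0.68; limma adjusted p = 0.590). The changes of Srebf1 and Srebf2 differed by 0.94 with no overlap between groups (exact two-sided permutation p = 0.333).

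Scap, the escort and sterol sensor of SREBPs, had levels of 4.08 and 4.31 untreated and 4.46 and 4.62 with DEM and did not pass (0.35 ± 0.17; limma adjusted p = 0.178). Stard4, a carrier of cholesterol between membranes and a target of SREBP, had levels of 1.60 and 1.63 untreated and -0.69 and 0.98 with DEM. Both DEM arrays were lower and they were far apart, and the change of -1.47 ± 0.51 did not pass (limma adjusted p = 0.0817). It was -2.31 without DEM array 2 and -0.64 without DEM array 1, and it passed in each of these fits, in which a single DEM array is taken to vary like the untreated ones.

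Of the 10 fatty acid enzymes, 4 were lower, 0 were higher and 6 did not pass in limma (6 lower and 0 higher at an unadjusted p under 0.05), where over all genes tested 15.5% were higher and 11.8% lower. Their median change was -0.66. Relative to each gene's untreated mean, the median enzyme stood at -0.07 and 0.07 in the untreated arrays and at -0.52 and -0.81 in the DEM arrays. Among the 4 enzymes that supply acetyl-CoA and build the chain, 1 was lower and the median change was 0.07; among the 6 desaturases and elongases, 3 were lower and the median change was -1.04, a difference that was not tested. Beside these stands the sterol branch, with 57.9% of enzymes lower against 40.0% of the fatty acid enzymes; the difference between the branches was not tested, since each branch is a chosen list. Scd2 alone of the fatty acid enzymes remained lower without untreated array 1 (limma adjusted p from 0.0207 to 0.111 over the 4) and without untreated array 2 (0.0305 to 0.102).

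**Figure D3:**
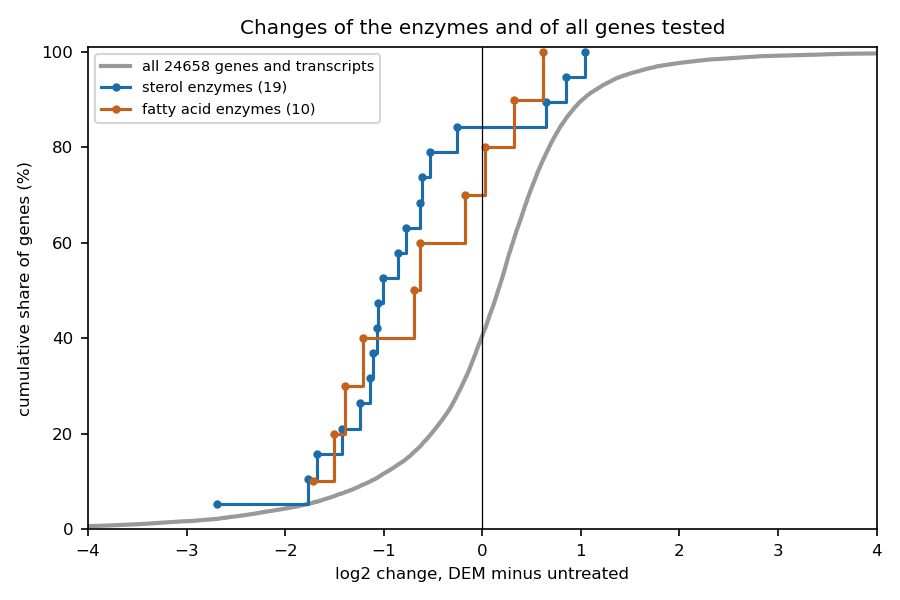
Cumulative share of genes (vertical axis, percent) at or below each change with DEM on the log2 scale (horizontal axis), for all 24658 genes and transcripts tested (grey), the 19 sterol enzymes (blue) and the 10 fatty acid enzymes (orange). At a change of 0 the curves stand at 84.2% of sterol enzymes, 70.0% of fatty acid enzymes and 40.5% of all genes.

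In the core of fatty acid synthesis, Acss2 was the enzyme that fell. Acss2, which makes acetyl-CoA from acetate, had levels of -0.63 and -0.73 untreated and -1.83 and -1.96 with DEM, a change of -1.21 ± 0.21, or 2.32-fold lower (limma adjusted p = 0.0112). Acly, which makes cytosolic acetyl-CoA from citrate, had levels of 0.86 and 0.65 untreated and 1.68 and 1.06 with DEM, a change of 0.61 ± 0.26 that did not pass (limma adjusted p = 0.129). Both enzymes feed the same pool of acetyl-CoA, and their DEM arrays lay on opposite sides of the untreated ones. The Acly change was 0.92 without DEM array 2, where it passed (limma adjusted p = 0.0171), and 0.30 without DEM array 1 (limma adjusted p = 0.310).

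The carboxylase and the synthase did not pass, and their probes disagreed. Fasn, the multi-step synthase of palmitate, had levels of 5.53 and 5.70 untreated and 5.99 and 5.89 with DEM (change 0.32, 95% interval -0.04 to 0.69; limma adjusted p = 0.162), while its second probe gave -0.45. Acaca, which makes malonyl-CoA, had levels of -0.75 and -0.43 untreated and -0.93 and -0.59 with DEM, with overlap between the groups. Its change was -0.17, with a 95% interval from -0.75 to 0.41 (limma adjusted p = 0.625), and its second probe gave 0.57. These were the only members of 17 with several probes above background whose probes had opposite signs, so neither gene has a settled direction.

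Among the desaturases, Scd2 and Fads1 fell. Scd2, a stearoyl-CoA desaturase widely expressed outside the liver, had levels of 5.80 and 6.08 untreated and 4.17 and 4.27 with DEM. Its change of -1.72 ± 0.17, or 3.29-fold lower, had the smallest adjusted p of the set (limma adjusted p = 0.00234), and it passed with any single array left out. Scd1, its paralog with the same reaction, had levels of 1.99 and 1.76 untreated and 1.54 and 0.83 with DEM and did not pass (-0.69 ± 0.28; limma adjusted p = 0.114). The change of Scd1 was 1.03 above that of Scd2 (exact two-sided permutation p = 0.333), and the Scd1 change was -1.05 without DEM array 1, where it passed (limma adjusted p = 0.0113), and -0.33 without DEM array 2 (limma adjusted p = 0.261).

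Fads1, the desaturase of the last step toward arachidonate, had levels of 2.34 and 2.45 untreated and 1.17 and 0.83 with DEM, a change of -1.40 ± 0.20, or 2.63-fold lower (limma adjusted p = 0.00642). Fads2, the desaturase of the first step, had levels of 1.61 and 1.80 untreated and 1.00 and 1.14 with DEM, a change of -0.63 ± 0.19 that lay at the threshold (limma adjusted p = 0.0507). Both DEM arrays were below both untreated arrays for the neighbouring Fads genes. Fads2 passed in several settings, among them median scaling (limma adjusted p = 0.0463) and dim probes kept (limma adjusted p = 0.0232). With spike-in scaling (limma adjusted p = 0.999) or without the intensity trend (limma adjusted p = 0.0754) it did not. Without DEM array 2 the Fads2 change was -0.70. The changes of Fads1 and Fads2 differed by -0.76 (exact two-sided permutation p = 0.333).

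Of the elongases, Elovl6 passed and Elovl5 did not. Elovl6, which elongates palmitate and its neighbours, had levels of 1.64 and 1.83 untreated and -0.16 and 0.61 with DEM, a change of -1.51 ± 0.29, or 2.84-fold lower (limma adjusted p = 0.0148). Elovl5, which elongates polyunsaturated chains, had levels of 3.49 and 3.49 untreated and 3.44 and 3.61 with DEM, with overlap and a change of 0.03 (95% interval -0.37 to 0.43; limma adjusted p = 0.903). The difference of 1.54 between their changes did not overlap between groups (exact two-sided permutation p = 0.333). In all, 7 such pairs of related members were compared, each on 2 arrays against 2, with an adjusted permutation p of 0.333. None could pass in this design. All 7 were separate, but the pairs were chosen with earlier results of these data known, so this is a description only. Of all single genes tested, 68.5% did not overlap between the groups.

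Probes of the same gene gave a check that the rule for members did not use. The 35 members had 59 probes, of which 55 were well above background on at least 2 arrays, and 17 members had several. In 15 of the 17 all probes had the same direction, and the exceptions were Acaca and Fasn. The second probes of Hmgcs1, Dhcr7 and Insig1 were not well above background on either DEM array. Changes for the same gene differed most for Stard4, whose probes gave -1.47, -1.40 and -0.46, and least for Elovl5 and Mvk.

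**Figure D4:**
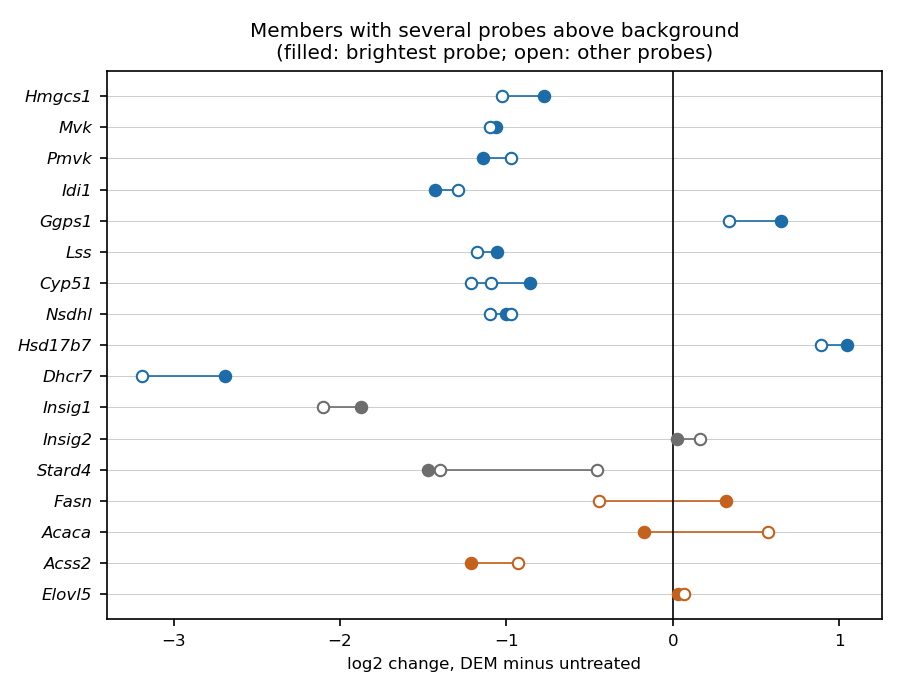
Change with DEM on the log2 scale (horizontal axis) for the 17 members with several probes well above background, with the brightest probe filled and the others open. All probes of a gene lie on the same side of 0 in 15 genes; Fasn and Acaca have probes on both sides.

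Among the 14 genes that move, cut and degrade the SREBPs, all measured, 4 were higher and 1 was lower, with a median change of 0.21. Over all genes tested, 15.5% were higher and 11.8% lower, with a median change of 0.16. Mbtps1, the protease that makes the first cut in SREBPs, was lower at -0.82 ± 0.17 (limma adjusted p = 0.0200). Higher were Pgrmc1, a haem-binding partner of Insig and Scap, at 1.39 ± 0.22 (limma adjusted p = 0.00874), and Spring1, a cofactor of Mbtps1, at 1.12 ± 0.23 (limma adjusted p = 0.0180). Erlin1, a membrane protein of sterol-regulated degradation in the endoplasmic reticulum, rose by 0.89 ± 0.19 (limma adjusted p = 0.0226). None of these calls held with spike-in scaling or without either untreated array (4 higher and 1 lower at an unadjusted p under 0.05 in limma without either untreated array, and 0 of each with spike-in scaling).

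Genes of sterol uptake, transport, storage and efflux moved both ways, with 22 of 25 measured, 6 higher, 7 lower and a median change of 0.02, where over all genes tested 15.5% were higher and 11.8% lower. Lrp8, a receptor of the low-density lipoprotein receptor family, was not well above background on the untreated arrays. On the levels defined above, it was at least 15.1-fold higher with DEM (limma adjusted p = 0.00249). The log2 change of Lrp8 ranged from 2.34 to 5.29 over the settings, so this bound does not hold for all of them. Soat1, which esterifies cholesterol for storage, was higher at 1.51 ± 0.21 (limma adjusted p = 0.00623), as was Scarb1, a receptor of high-density lipoprotein, at 1.37 ± 0.22 (limma adjusted p = 0.00933). Nr1h3, the nuclear receptor LXR alpha that senses oxysterols, was higher at 2.44 ± 0.39 (limma adjusted p = 0.00856). Untreated levels of Nr1h3, -4.46 and -4.60, were near the lowest levels well above background (-4.82 and -4.80). Its change ranged from 1.43 to 2.92 over the settings. Abca1, the cholesterol exporter that is a target of that receptor, was lower. Its levels were 2.25 and 2.39 untreated and 0.71 and -0.68 with DEM, a change of -2.30 ± 0.44 (limma adjusted p = 0.0147). Lrpap1, a chaperone of lipoprotein receptors, was lower at -1.14 ± 0.16 (limma adjusted p = 0.00577), and Cav1, the coat protein of caveolae, at -1.00 ± 0.19 (limma adjusted p = 0.0154). Ch25h, which makes an oxysterol that retains SREBPs, was called lower (limma adjusted p = 0.0155) but was not well above background on the DEM arrays, and no fold is given. Without untreated array 1 or without untreated array 2 the counts of this list were 2 higher and 0 lower in limma (6 and 4 lower at an unadjusted p under 0.05).

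Genes that supply, activate and esterify fatty acids gave 4 higher and 5 lower of 31 measured, with 39 listed and a median change of 0.23. These counts lie near the shares over all genes tested, of which 15.5% were higher and 11.8% lower. Of the 5 lower genes, Elovl4 was not well above background on either DEM array. Slc25a1, the mitochondrial citrate exporter, was lower at -1.06 ± 0.23 (limma adjusted p = 0.0211), as were Tecr, the reductase of chain elongation, at -0.92 ± 0.22 (limma adjusted p = 0.0282), Lipe, the hormone-sensitive lipase, at -0.94 ± 0.22 (limma adjusted p = 0.0287), and Acsl3, an acyl-CoA synthetase of lipid droplets, at -0.83 ± 0.23 (limma adjusted p = 0.0425). Higher were Me1, the NADPH-making malic enzyme, at 1.01 ± 0.19 (limma adjusted p = 0.0136), Pnpla2, the adipose triglyceride lipase, at 1.09 ± 0.19 (limma adjusted p = 0.0111), and Lpin2, a phosphatidate phosphatase, at 0.77 ± 0.20 (limma adjusted p = 0.0386). Fads3, a neighbour of Fads1 and Fads2, was higher at 0.52 ± 0.15 (limma adjusted p = 0.0479) and lost its call under 8 alternatives. Without untreated array 1 the list held 0 higher and 1 lower gene in limma (2 and 4 at an unadjusted p under 0.05), and without untreated array 2 it held 0 of each (4 and 2).

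In fatty acid oxidation, the opposite process, 6 of 18 measured genes were lower and 0 were higher in limma, with a median change of -0.40. At an unadjusted p under 0.05 in limma, 9 were lower and 3 higher. Over all genes tested, 11.8% were lower and 15.5% higher. Of the 6 lower genes, Ehhadh was not well above background on either DEM array. Acaa2, the last enzyme of the mitochondrial cycle, was lower at -1.63 ± 0.19 (limma adjusted p = 0.00364), and Hadh, the dehydrogenase before it, at -1.37 ± 0.24 (limma adjusted p = 0.0112). Acadm, which starts the cycle on medium chains, was lower at -1.18 ± 0.17 (limma adjusted p = 0.00631), and Acat1, the mitochondrial thiolase, at -1.12 ± 0.18 (limma adjusted p = 0.00943). Genes that build fatty acids and genes that burn them were thus both among those that fell. Without untreated array 1 or untreated array 2, Acaa2 alone of the list remained lower, and with spike-in scaling 0 did (4 at an unadjusted p under 0.05 in limma).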

How the data were processed

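Spot intensity on 4 Cy3 arrays came from Agilent Feature Extraction software, version 10.7.3.1 per the file headers, which had subtracted and detrended background and replaced low signals by surrogate values. The authors deposited a series table of log2 values. At least 99.98% of its probes lay within 0.01 of log2 processed signal minus the 75th percentile plus a constant, and its column medians were -4.39, -4.35, -4.30 and -4.36. It served as an alternative.

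Of 62976 spots per array, 1319 controls and the spots with an outlier mark were left out, and none was saturated. Levels were log2 processed signal minus the 75th percentile of each array. A probe was used if at least 2 of 4 arrays had it well above background, and the brightest was taken per gene. Of 61307 probes, 28027 were named by accession, 4965 by symbol and 1400 by synonym through the RefSeq gene table of GRCm38.p6, and 26726 kept the name in the files. The array design is on mm9 per the file headers, and no probe coordinates are given.

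The DEM arrays were tested against the untreated ones in R 4.3.3 with limma 3.58.1 (lmFit, eBayes with trend; 2 residual and 4.03 prior degrees of freedom), two-sided, with Benjamini-Hochberg adjustment over 24658 genes and transcripts at a threshold of 0.05. The code was tested on simulated data. Where both arrays of a group were not well above background, a fold is a lower bound. Bounds take the dim group at the higher of its own level and the lowest level well above background on each array. No list was tested as a set.

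All members are named, with, from each list of other lipid genes, up to 4 genes per direction with the smallest adjusted p; a gene under this rule that is not reported here one by one stays in the counts. The members, lists, motifs and tests were chosen with earlier results of these data known. Replicate numbers did not pair the samples (correlation of the deviations of same-numbered arrays across genes 0.08). Alternatives were normexp background correction (offset 50), quantile, median and spike-in scaling, the authors' values, other filters and probe rules, no trend, the replicate block, and each array left out.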

Additional observations from a re-analysis of the deposited data

How the results depend on the processing

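All 18 members that passed kept their direction in the 14 alternatives, and the calls changed most with spike-in scaling and with 1 untreated array left out. As said above, the direction could turn only in the alternatives that changed the signal, the scaling or the choice of probe. Spike-in scaling gave 363 genes higher and 787 lower in all, 0 sterol enzymes higher and 1 lower, 0 fatty acid enzymes lower and 0 regulators lower. Normexp background correction gave 6470 genes higher, a sterol median of -0.78 and 3 regulators lower. Having no filter on dim probes gave 17297 genes higher and 2 regulators lower, and 2 regulators were also lower with median scaling and with the filter for all 4 arrays. Of the sterol enzymes, 1 was higher with quantile normalization and with no intensity trend, and with no trend 8 were lower, with Hmgcs1, Pmvk, Cyp51 and Ebp losing their calls. The median change of all genes was 0.16, against 0.06 with spike-in scaling and 0.47 with no filter on dim probes. With the replicate number as a block, 13 sterol enzymes were lower and 3 higher, 6 fatty acid enzymes were lower, and 3 regulators were lower, over 4473 genes higher and 3378 lower. It added Mvk, Ggps1, Msmo1, Srebf2, Stard4, Scd1 and Fads2 to the members that passed. No label ties same-numbered arrays together and their deviations correlated at 0.08 across genes, although arrays of the same number were alike in their percentile relative to the spike-in RNA.

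With each array left out in turn, genes higher ranged from 644 to 4488 and lower from 802 to 3814. Sterol enzymes lower ranged from 1 to 13, higher from 0 to 3, and their median from -1.07 to -0.69. Fatty acid enzymes lower ranged from 1 to 5, higher from 0 to 1, and their median from -0.81 to -0.52. Regulators lower ranged from 0 to 3. A group left with 1 array is assumed to vary like the other group.

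Reversals were seen in genes that did not pass. Insig2 was at -0.038 with normexp, -0.15 with quantile, -0.015 with median and -0.076 with spike-in scaling. Elovl5 was at -0.0090, -0.15, -0.0095 and -0.070 in those settings, and Srebf1 at -0.023 with quantile normalization. With the mean of all kept probes, Fasn was at -0.062 and Acaca at 0.20. With 1 array left out, Insig2 ranged from -0.10 to 0.16, being below 0 without untreated array 2 and, at -0.042, without DEM array 2. Elovl5 ranged from -0.054 without DEM array 2 to 0.12 without DEM array 1, and Srebf1 from -0.073 to 0.41 without the same arrays. Acaca ranged from -0.34 without DEM array 2 to 0.000565 without DEM array 1. The cause of these changes was not tested, except that the mean of probes takes in the Fasn and Acaca probes of opposite sign. With 2 arrays a group, the number of arrays limits the precision of every value.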
